A study of Mus musculus with 2 samples.

Results

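The 50 genes described here encode proteins that build the mitotic spindle, attach chromosomes to it and divide the cell, and they were taken by name for those known roles from the 18366 genes listed in 2 single-cell count tables of mouse glioma. Every one of them was listed in both tables. Their rows were read across the kept cells, which are cell barcodes with at least 500 genes and at most 15% of their UMIs (unique molecular identifiers, each standing for 1 captured RNA molecule) from mitochondrial genes. They fall into 9 role groups: cyclins and their kinase, other mitotic kinases, the chromosomal passenger complex, centromere and kinetochore, spindle checkpoint, anaphase ubiquitin ligase, spindle motors and assembly factors, cytokinesis, and chromosome structure.

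The tumours were gliomas of C57BL/6 mice, started before birth by transferring PDGFB, a growth factor that drives the proliferation of oligodendrocyte precursors, into the telencephalon, and collected about 40 days after birth. Tumour cells were sorted by GFP and pooled from 2 tumours per library, and 4000 cells of each pool were loaded on a 10x Genomics 3′ chip. There are 2 such libraries, pool 1 and pool 2, of 1 group, with no control and no map from cells to tumours. All comparisons below are therefore between kinds of cells inside both pools. A p-value sets a difference against the spread between 2 pools, not between tumours, and that spread is mostly one shared across genes.

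Mitosis is driven by the kinase CDK1 with its cyclins, whose genes are transcribed in a wave that starts during DNA replication and peaks as cells enter mitosis. Kinetochores, the protein plates built on centromeres, then hold chromosomes to spindle microtubules, and a checkpoint delays separation until every chromosome is attached. The anaphase-promoting complex, a ubiquitin ligase, ends mitosis by marking cyclins and other proteins for destruction, and a ring of actin and myosin then divides the cell.

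Pool 1 held 33894255 UMIs and 3506 kept cells with a median of 7440 UMIs, and pool 2 held 40909383 UMIs and 3278 kept cells with a median of 11272. The libraries shared 4 barcodes. The labelled glioma cells were rich in oligodendrocyte precursor markers, whose 8 genes summed to 10066 CPM (counts scaled to the same total in each sum of cells, per 1e6 UMIs) in pool 1 and 9474 CPM in pool 2, and all 8 were detected. The 9 microglia markers summed to 92.9 and 134 CPM. Erythroid markers differed, at 0.0897 and 59.6 CPM. The receptor of the inducing factor, Pdgfra, stood at 1276 and 1299 CPM.

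The abundance of the mitosis genes spanned more than an order of magnitude and was lower in pool 2 for each of the 50. How many of all 18366 genes were lower there was not counted, so this is not read as particular to the members. Hmgb2, a chromatin protein that bends DNA, was the most abundant, at 470 CPM in pool 1 and 465 CPM in pool 2. Top2a, the topoisomerase that untangles sister DNA, had 314 and 214 CPM, and Cenpf, a large kinetochore protein, had 315 and 204 CPM. The proliferation antigen Mki67 reached 264 and 172 CPM. The least abundant was Kif20a, a motor of the late spindle, at 16.1 and 12.1 CPM, and the median member had a mean of 45.6 CPM. Counts of this kit come from transcript 3′ ends, so CPM need no division by length. The ratio of pool 2 to pool 1 ran from 0.559 for Hmmr to 0.991 for Hmgb2, with a median of 0.722, and the summed level was 3033 CPM in pool 2 against 4106 CPM in pool 1. With 1 library per pool this difference has no replicate, and the pools also differed in depth and in the median mitochondrial share, which was 1.44% in pool 2 against 2.97% in pool 1. The part of these in the lower level was not tested.

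To see in which cells the genes were used, cells were marked with 2 lists of other cell-cycle genes that contain none of the 50. Each UMI was assigned at random to a training or a held-out set, cells were marked on training counts thinned to 2000 UMIs, and the levels of marked cells and every test below come from the held-out counts. M-marked cells had at least 3 of 25 genes known from G2 and mitosis (Aspm, Kif14, Cdc25c and others) and at most 1 of 30 replication genes (Mcm2, Pcna, Rrm2 and others). S-marked cells had at least 4 replication genes and no mitotic one, cells marked by both lists passed both minimums, and unmarked cells had no mitotic and at most 1 replication gene. Of the 2362 cells of pool 1 deep enough for the call, 92 were M-marked, 114 were marked by both lists, 90 were S-marked and 921 were unmarked. Pool 2 had 79 M-marked cells, 66 marked by both lists, 85 S-marked and 1161 unmarked among 2439. The other 1145 and 1048 cells fell between these definitions.

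The genes were concentrated in few cells. The 3 marked states made up 12.5% of the deep cells of pool 1 and 9.43% of those of pool 2, and they carried 54.5% and 55.7% of the members' UMIs. Summed over the 50 genes, M-marked cells had 23353 CPM in pool 1 and 22565 CPM in pool 2, and cells marked by both lists had 15819 and 18165 CPM. S-marked cells had 2755 and 2091 CPM, and unmarked cells 358 and 376 CPM. The order of the 4 states was the same in both pools, and no 2 of them overlapped. Cells between the definitions held a further 42.6% and 39.1% of the members' UMIs.

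**Figure D1:**
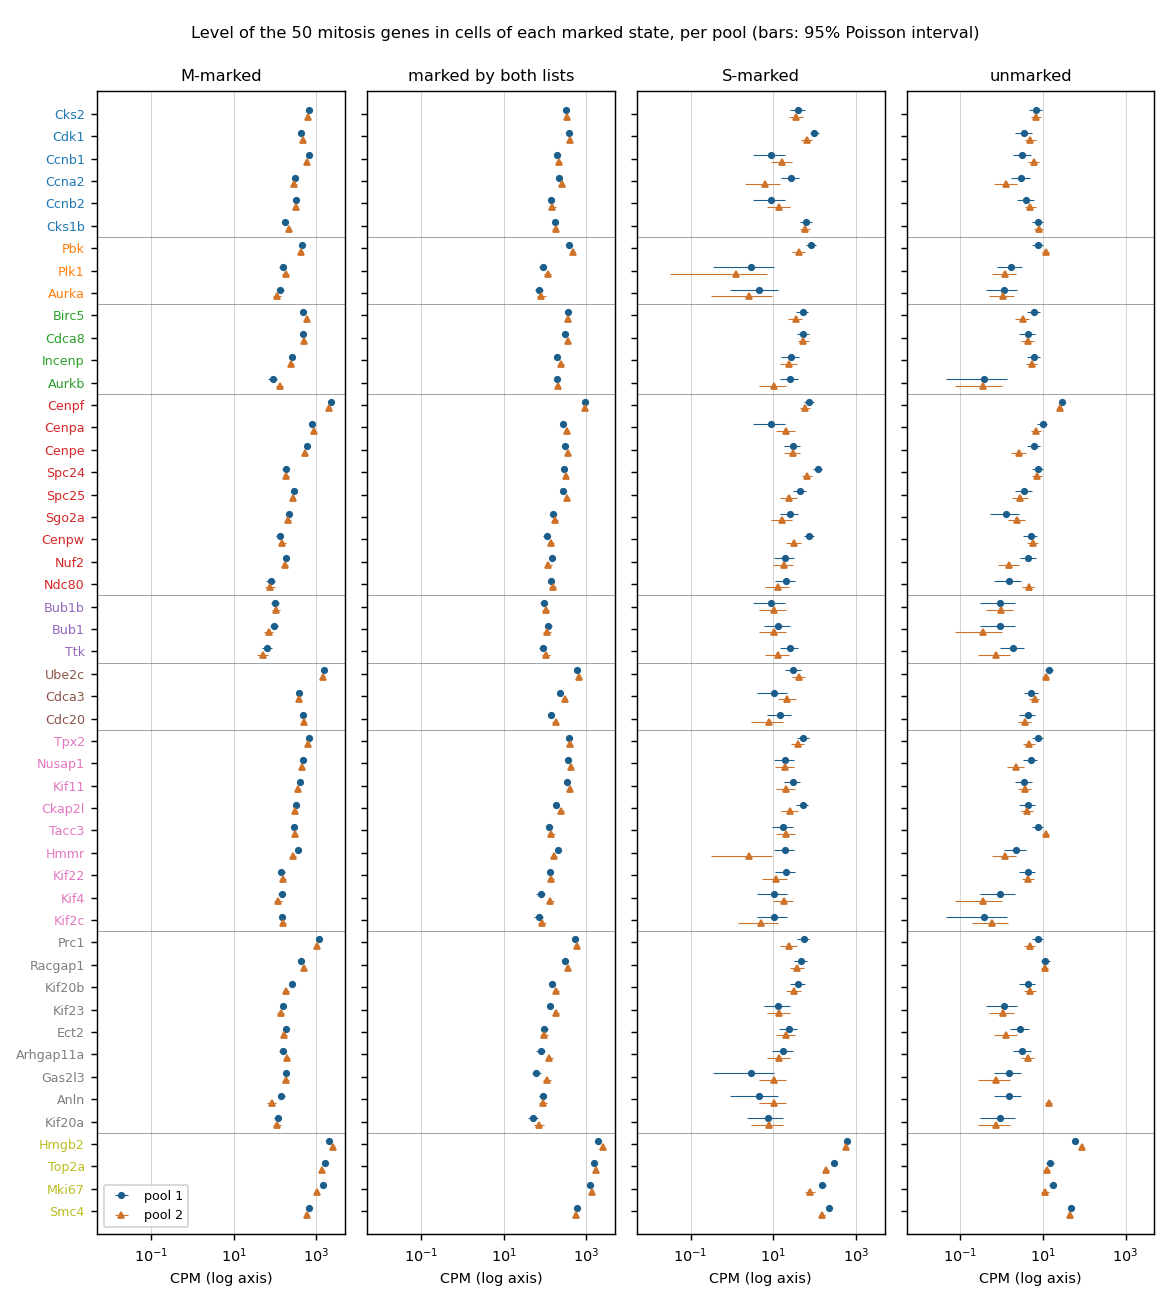
Level of each of the 50 genes in CPM (log axis) in M-marked cells, cells marked by both lists, S-marked cells and unmarked cells. Circles are pool 1, triangles pool 2, and bars are 95% Poisson intervals, which cover counting error only. Names are coloured by role group. All 50 genes sit higher in M-marked than in S-marked cells in both pools.

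Single cells showed the same ordering. At an even depth of 2000 held-out UMIs, a median of 23 distinct members was detected per M-marked cell in each pool. Cells marked by both lists had a median of 16 members in pool 1 and 20 in pool 2, S-marked cells 3 in each pool, and unmarked cells 0 in each pool. The M-marked cells were not uniform. Of them, 78.3% in pool 1 and 82.3% in pool 2 showed at least 10 members, while 5.43% and 10.1% showed none, and the highest cell showed 35 and 36. S-marked cells with at least 10 members were 6.74% in pool 1 and 3.53% in pool 2, and unmarked cells 0.219% and 0.0864%.

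**Figure D2:**
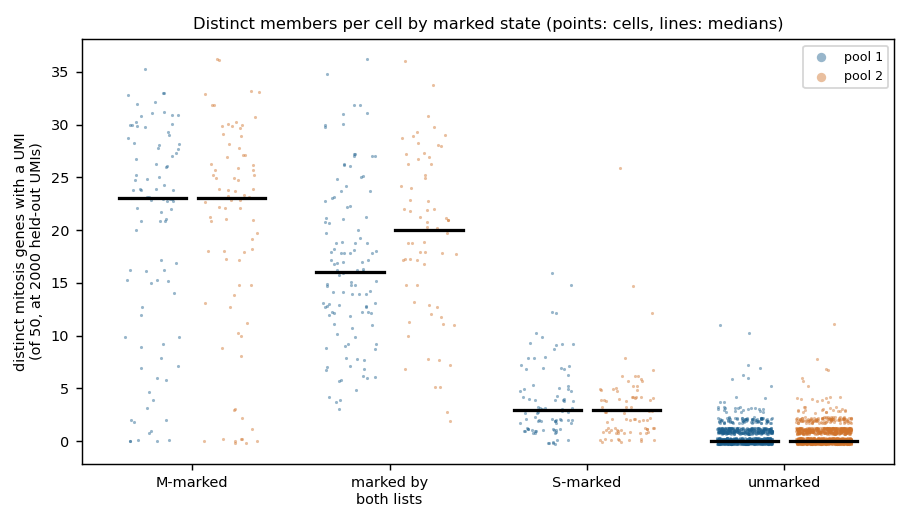
Number of the 50 genes with at least 1 UMI per cell at 2000 held-out UMIs, by marked state. Each point is a cell of pool 1 or pool 2, jittered, and black lines are medians. M-marked cells have a median of 23 in both pools and unmarked cells 0, and a few M-marked cells lie at 0.

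M-marked cells had more of every member than unmarked cells. The marking genes of the M list are themselves known from G2 and mitosis, and unmarked and S-marked cells had none of them. A rise of the members in M-marked cells is therefore largely built into the marking, and their count is no independent evidence. What can be read is the size for each gene. In edgeR's quasi-likelihood test with the pool as a block and Benjamini-Hochberg adjustment over all 9530 genes tested, 50 of 50 members rose in M-marked cells, where 11.4% of all genes did. The median log2 fold change was 6.72, against -0.02 over all genes tested, and the members ran from 3.81 for Smc4 to 8.15 for Kif2c. The unmarked level of Kif2c rests on few UMIs. Oligodendrocyte markers moved with this contrast, summing over 9 genes to 524 and 205 CPM in M-marked cells and 1874 and 1750 CPM in unmarked cells, as did the median UMIs per cell, at 13875 and 15727 in M-marked cells and 10664 and 13017 in unmarked cells. Microglia markers summed to 29.3 and 20.8 CPM in M-marked cells and 192 and 231 CPM in unmarked cells. Their part in the difference was not tested.

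Among the cyclins and their kinase, the 6 members rose by a median log2 of 6.64. Ccnb1, cyclin B1, the activating partner of CDK1 in mitosis, had 654 and 583 CPM in M-marked cells of pools 1 and 2, against 3.15 and 5.94 CPM in unmarked cells. Ccna2, cyclin A2, which acts in both replication and mitotic entry, had 309 and 291 CPM in M-marked cells, against 2.97 and 1.31 CPM in unmarked cells. Both were far apart between the states in each pool, with log2 fold changes of 7.04 ± 0.17 and 7.24 ± 0.24 (SE, edgeR adjusted p = 1.36e-20 and 7.01e-18). Cdk1 itself had 430 and 476 CPM in M-marked cells, against 3.52 and 4.99 CPM in unmarked cells.

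Of the other mitotic kinases, Plk1, which triggers centrosome maturation and mitotic entry, had 153 and 179 CPM in M-marked cells and 1.67 and 1.19 CPM in unmarked cells. Aurka, which organises the spindle poles, had 135 and 112 CPM in M-marked cells and 1.11 and 1.07 CPM in unmarked cells. Both were far scarcer in unmarked cells, in each pool. In the chromosomal passenger complex, which corrects wrong attachments, the kinase Aurkb had 87.8 and 131 CPM in M-marked cells against 0.371 and 0.357 CPM in unmarked cells, where it rested on 5 UMIs over both pools. Its fold change of 8.09 ± 0.35 (log2, SE) was the second highest, and the direct ratio of its UMIs was 302 with a counting interval of 127 to 941. The complex's other subunits, Birc5 (survivin), Cdca8 (borealin) and Incenp, rose by 6.96, 6.89 and 5.51.

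The 9 centromere and kinetochore genes rose by 4.58 (Ndc80) to 7.16 (Cenpe). Cenpf was among the most abundant RNAs of the set in M-marked cells, at 2283 and 2011 CPM, against 28.6 and 25.3 CPM in unmarked cells. Cenpe, a kinesin that carries chromosomes to the spindle equator, had 597 and 525 CPM in M-marked cells, against 5.93 and 2.62 CPM in unmarked cells. The checkpoint kinases were scarcer but as unequal. Bub1 had 94.1 and 70.1 CPM in M-marked cells, against 0.927 and 0.357 CPM in unmarked cells, and Ttk, which starts the checkpoint signal, had 63.6 and 50.6 CPM against 1.85 and 0.713 CPM.

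The anaphase genes were abundant. Ube2c, the ubiquitin-conjugating enzyme of the anaphase-promoting complex, had 1487 and 1463 CPM in M-marked cells and 14.1 and 11.8 CPM in unmarked cells. Cdc20, the activator of that complex at anaphase, had 467 and 510 CPM in M-marked cells and 4.26 and 3.69 CPM in unmarked cells. Neither overlapped between the states. Of the spindle motors, Kif2c, which takes microtubules apart at kinetochores, had 149 and 157 CPM in M-marked cells against 0.371 and 0.594 CPM in unmarked cells, and Kif4, a chromosome-bound motor, had 145 and 117 CPM against 0.927 and 0.357 CPM. Prc1, which bundles the microtubules of the central spindle for cytokinesis, had 1135 and 1061 CPM in M-marked cells, against 7.42 and 4.76 CPM in unmarked cells.

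Smaller differences came from genes that unmarked cells also held. Smc4, a condensin subunit that compacts chromosomes, had 678 and 592 CPM in M-marked cells, against 46.9 and 45.4 CPM in unmarked cells, and rose by 3.81 ± 0.12 (log2, SE, edgeR adjusted p = 1.81e-18). Hmgb2 had 2028 and 2533 CPM in M-marked cells, against 59.9 and 89.9 CPM in unmarked cells. Neither overlapped between the states. Anln (anillin), a scaffold of the contractile ring, varied between the pools, with 142 and 83.1 CPM in M-marked cells of pools 1 and 2, against 1.48 and 13.7 CPM in unmarked cells. Its log2 difference was 5.93 in pool 1 but 2.60 in pool 2. In pool 2, the oligodendrocyte-like cluster 8 described below had 222 Anln UMIs over all counts, and 40 of its 55 deep cells were unmarked. The part of these cells in the unmarked Anln level, to which S-marked cells are also compared, was not tested.

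S-marked cells held most of these RNAs at low levels. Against unmarked cells, 46 of 50 members rose in S-marked cells, where 6.82% of all 9530 genes did, with a median log2 fold change of 2.83 against -0.02 over all genes. Other values moved with this contrast. Oligodendrocyte markers summed to 223 and 993 CPM in S-marked cells and 1874 and 1750 CPM in unmarked cells, microglia markers to 33.1 and 16.1 CPM and 192 and 231 CPM, and median UMIs were 14820.5 and 16072 in S-marked cells and 10664 and 13017 in unmarked cells. Their part in the difference was not tested. The members that rose most were Aurkb (5.40), Kif4 (4.53), Cdk1 (4.20), Bub1 (4.19), Top2a (4.15) and Ttk (3.93). Of these, Aurkb, Kif4 and Bub1 rest on few UMIs in unmarked cells. Cdk1 had 99.8 and 64.3 CPM in S-marked cells, against 3.52 and 4.99 CPM in unmarked cells. Top2a had 298 and 188 CPM in S-marked cells, against 15 and 12.4 CPM in unmarked cells. Both pools stood apart for either gene. The 4 members that did not pass the test were Aurka (1.62 ± 0.77, adjusted p = 0.231), Cenpa (0.92 ± 0.39, adjusted p = 0.168), Plk1 (0.59 ± 0.87, adjusted p = 0.775) and Anln (-0.13 ± 0.83, adjusted p = 0.956), all log2 ± SE from edgeR's quasi-likelihood test. For Plk1, S-marked cells had 2 UMIs in pool 1 and 1 in pool 2, a ratio to unmarked cells of 1.49 with a counting interval of 0.283 to 5.07. Cenpa, the histone variant that marks centromeres, had 8.81 and 20.6 CPM in S-marked cells, overlapping the 9.83 and 6.78 CPM of unmarked cells.

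The direct contrast of M-marked with S-marked cells separated members that were well under way in S-marked cells from members that were nearer to their unmarked level there. All 50 rose in M-marked cells (5.71% of the 9530 genes tested did), by a median log2 of 3.46 against -0.01 over all genes, and the range was wide. At the low end stood Spc24 (1.04 ± 0.19), Cenpw (1.45 ± 0.25), Ttk (1.64 ± 0.35), Cks1b (1.70 ± 0.17), Smc4 (1.79 ± 0.13) and Hmgb2 (1.92 ± 0.13). At the high end stood Plk1 (6.33 ± 0.38), Cenpa (5.83 ± 0.22), Ccnb1 (5.60 ± 0.22), Cdc20 (5.50 ± 0.22), Ube2c (5.37 ± 0.16), Aurka (5.17 ± 0.37) and Cenpf (5.05 ± 0.14). These errors are SE of log2 values, taken from the fold change and the F statistic of the test. For scarce members such as Plk1 they are narrower than counting error. Counting intervals of the UMI ratio were 1.65 to 2.52 for Spc24 and 26.7 to 40.4 for Cenpf. The Plk1 value rests on 3 S-marked UMIs over both pools, and its UMI ratio was 80.6 with a counting interval of 27.3 to 394. By role, the medians were 5.37 for the anaphase ubiquitin ligase genes, 5.17 for the mitotic kinases, 4.18 for the cyclin group, 3.96 for the spindle group, 3.49 for cytokinesis, 3.30 for centromere and kinetochore, 3.29 for the passenger complex, 2.82 for the checkpoint and 2.29 for chromosome structure.

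Members of 1 complex or family differed in size of change, and these differences between genes were not tested. Ndc80, Nuf2, Spc24 and Spc25 are the 4 subunits of the complex that grips microtubules at the kinetochore. Spc24 had 179 and 188 CPM in M-marked cells, against 119 and 65.6 CPM in S-marked cells. Spc25 had 286 and 270 CPM in M-marked cells, against 44.0 and 24.4 CPM in S-marked cells. The log2 differences were 1.04 for Spc24, 2.24 for Ndc80, 3.07 for Spc25 and 3.30 for Nuf2. The paralogs Cks1b and Cks2, small partners of cyclin-dependent kinases, were also unequal. Cks2 had 650 and 614 CPM in M-marked cells, against 39.6 and 36.0 CPM in S-marked cells, a difference of 4.09 ± 0.16, whereas Cks1b had 177 and 212 CPM in M-marked cells, against 63.1 and 59.1 CPM in S-marked cells. A retrocopy of Cks1b, Cks1brt, had 4 UMIs in each pool. The 3 B- and A-type cyclins ran in the order Ccna2 (4.27), Ccnb2 (4.81) and Ccnb1 (5.60). These values rest on 23, 17 and 19 S-marked UMIs over both pools, in the same order. Counting intervals of the UMI ratio were 12.53 to 30.33 for Ccna2, 16.98 to 47.53 for Ccnb2 and 30.26 to 79.28 for Ccnb1. These intervals overlap, so the order of the 3 cyclins is not settled by the counts.

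**Figure D3:**
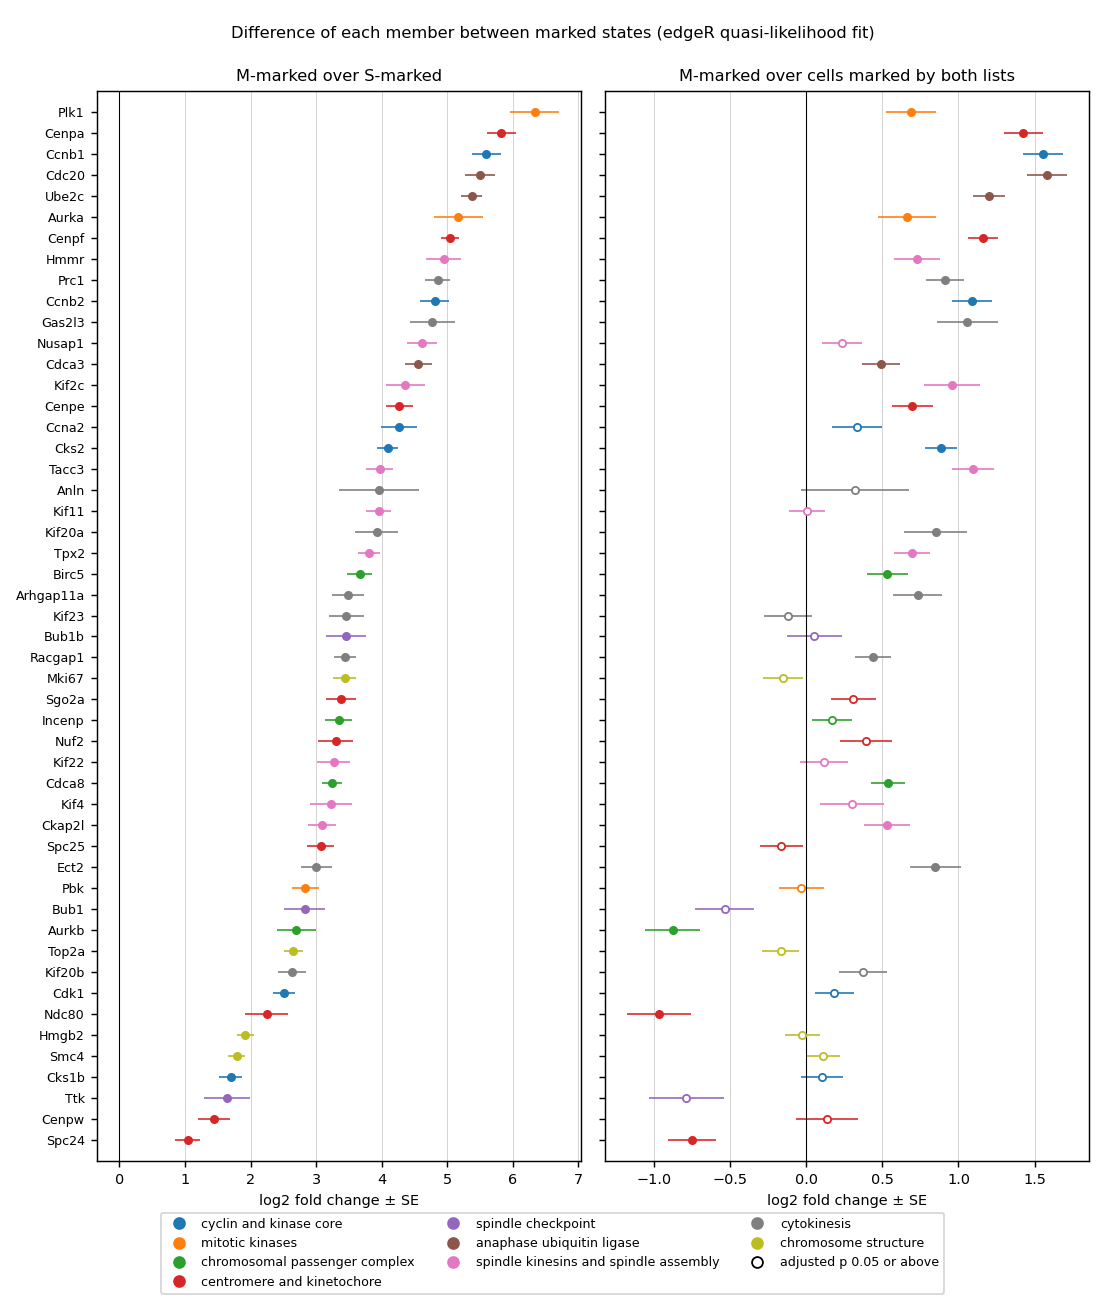
Log2 fold change ± SE of each of the 50 genes, ordered by M-marked over S-marked cells (left), with M-marked over cells marked by both lists in the same order (right). Colours give the role group and open circles an adjusted p of 0.05 or above. The left panel runs from 1.04 for Spc24 to 6.33 for Plk1, and the right panel from -0.97 for Ndc80 to 1.58 for Cdc20.

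Genes of the mitotic wave are known for a pair of promoter elements, the cell cycle homology region (TTTGAA, less often TTCGAA), bound by DREAM-type and MuvB complexes, and CCAAT boxes, bound by NF-Y. RefSeq promoters (GRCm38.p6, 250 bases before and 50 after each start, 5′ to 3′ on the gene's strand) were given for 42 of the 50 genes, in 45 windows. The 8 genes with none were Ccna2, Pbk, Aurkb, Incenp, Spc24, Tpx2, Kif20a and Smc4. Matches were searched on both strands, the elements do not contain one another, and matches of different elements may share bases. The 6 promoters below show both ends of the M-marked over S-marked range, with the paralog pair. Late and early name the high and the low end of that ratio, since no time was measured. Capitals mark every CCAAT box and every match to the homology region, on either strand. On the other strand TTTGAA reads as TTCAAA, while a CCAAT box reads as ATTGG.
Plk1 (late), chr7:122159185-122159484, plus strand: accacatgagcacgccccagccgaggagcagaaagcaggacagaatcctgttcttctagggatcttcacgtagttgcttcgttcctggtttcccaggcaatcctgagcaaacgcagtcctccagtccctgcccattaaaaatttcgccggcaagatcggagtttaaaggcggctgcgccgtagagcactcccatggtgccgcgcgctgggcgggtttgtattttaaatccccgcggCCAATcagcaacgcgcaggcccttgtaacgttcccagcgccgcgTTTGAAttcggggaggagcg
Cdc20 (late), chr4:118437294-118437593, minus strand: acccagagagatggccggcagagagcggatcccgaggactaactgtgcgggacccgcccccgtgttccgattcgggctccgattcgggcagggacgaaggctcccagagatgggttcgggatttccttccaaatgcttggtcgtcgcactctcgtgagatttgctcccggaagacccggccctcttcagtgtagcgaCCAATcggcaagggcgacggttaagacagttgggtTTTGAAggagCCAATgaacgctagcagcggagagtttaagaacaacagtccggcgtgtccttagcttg
Ccnb1 (late), chr13:100786437-100786736, minus strand: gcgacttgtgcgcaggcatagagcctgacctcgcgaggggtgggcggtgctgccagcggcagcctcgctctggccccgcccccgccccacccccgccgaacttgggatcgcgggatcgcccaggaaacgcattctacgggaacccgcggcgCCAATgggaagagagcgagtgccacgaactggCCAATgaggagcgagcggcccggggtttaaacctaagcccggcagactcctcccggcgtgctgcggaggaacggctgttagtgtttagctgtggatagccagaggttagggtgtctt
Cks2, chr13:51644982-51645281, plus strand: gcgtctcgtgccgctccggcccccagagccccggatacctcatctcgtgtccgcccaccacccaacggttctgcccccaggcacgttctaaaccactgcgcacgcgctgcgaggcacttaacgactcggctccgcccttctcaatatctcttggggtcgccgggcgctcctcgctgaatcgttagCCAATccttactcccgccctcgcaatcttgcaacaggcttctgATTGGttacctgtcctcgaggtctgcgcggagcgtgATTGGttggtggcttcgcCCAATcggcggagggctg
Cks1b (early), chr3:89418242-89418541, minus strand: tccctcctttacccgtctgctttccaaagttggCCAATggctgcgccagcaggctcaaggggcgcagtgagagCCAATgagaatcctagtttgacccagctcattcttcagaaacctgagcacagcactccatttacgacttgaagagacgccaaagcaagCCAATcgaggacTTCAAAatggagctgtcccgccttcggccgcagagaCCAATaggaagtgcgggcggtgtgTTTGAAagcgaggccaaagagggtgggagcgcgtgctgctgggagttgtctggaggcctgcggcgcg
Ttk (early), chr9:83834439-83834738, plus strand: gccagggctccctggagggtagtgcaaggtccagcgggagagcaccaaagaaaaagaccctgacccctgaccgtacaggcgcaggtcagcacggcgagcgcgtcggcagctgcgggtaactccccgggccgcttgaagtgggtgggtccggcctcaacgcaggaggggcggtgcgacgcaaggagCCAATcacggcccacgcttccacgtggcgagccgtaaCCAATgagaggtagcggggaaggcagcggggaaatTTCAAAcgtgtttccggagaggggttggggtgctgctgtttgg

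Plk1 has TTTGAA 30 bases after the start base and 1 CCAAT box, Cdc20 has TTTGAA at -18 from it between 2 CCAAT boxes at -53 and -8, and Ttk has TTCAAA 7 bases after it. Cks1b holds TTTGAA or TTCGAA in 2 places and CCAAT in 4. Ccnb1 and Cks2 hold CCAAT 2 and 4 times and no match to TTTGAA or TTCGAA in these windows. Over the set, 34 of the 42 genes had TTTGAA or TTCGAA, in 80.0% of their windows against 19.2% of all 32851 promoter windows of the same length, and for 31 of the 34 a match began within 50 bases of the start. TTTGAA alone was in 75.6% of the member windows against 17.9% of all, and TTCGAA in 8.89% against 1.56%. CCAAT was in 82.2% against 37.4%, at least 2 CCAAT in 53.3% against 11.7%, and TTTGAA or TTCGAA together with CCAAT in 71.1% against 7.52%. Birc5, Nuf2, Nusap1 and Tacc3 had neither. The elements were on both sides of the M-marked over S-marked range. The median M-marked over S-marked log2 value was 3.45 over the 34 genes with TTTGAA or TTCGAA and 4.03 over the 8 without it. A match of letters is a description of the window and no evidence of binding.

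Cells marked by both lists allowed a further comparison, in a contrast added after these data had been seen. M-marked cells exceeded them in 24 of 50 members and fell below them in 3, where 2.55% and 4.24% of the 9530 genes did, and the median of the members was 0.38 against 0.01 over all genes. The members that rose most were Cdc20 (1.58 ± 0.13, adjusted p = 8.83e-09), Ccnb1 (1.56 ± 0.13, adjusted p = 1.14e-08), Cenpa (1.43 ± 0.13, adjusted p = 2.35e-08), Ube2c and Cenpf (1.16), in edgeR's quasi-likelihood test. Cdc20 had 467 and 510 CPM in M-marked cells, against 143 and 182 CPM in cells marked by both lists. Cenpa had 791 and 884 CPM in M-marked cells, against 276 and 344 CPM in cells marked by both lists. By the same edgeR test, the members that fell were Ndc80 (-0.97 ± 0.21, adjusted p = 0.00405), Aurkb (-0.88 ± 0.18, adjusted p = 0.00241) and Spc24 (-0.75 ± 0.16, adjusted p = 0.00298). Aurkb had 87.8 and 131 CPM in M-marked cells, against 193 and 203 CPM in cells marked by both lists, so the pools of the 2 states did not overlap. Median UMIs were 13875 and 15727 in M-marked cells and 15454.5 and 22608.5 in cells marked by both lists, and the part of depth was not tested. This contrast shares its M-marked cells with those above. By DESeq2 the counts were 11 higher and 1 lower, and with no block for the pool 14 higher and 0 lower. The share of all genes called under these 2 alternatives was not counted.

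Genes of the same machinery outside the set were read from a list of 41 other kinetochore, checkpoint and condensin genes. In M-marked against unmarked cells 37 of the 41 rose and none fell (11.4% of all genes rose), with a median of 3.96, and among those of smallest p were Knl1 (7.47), a kinetochore scaffold, Smc2 (4.11), the partner of Smc4 in condensin, and Sgo1 (7.33), which guards sister cohesion. Against S-marked cells 24 rose and 1 fell (5.71% and 4.08% of all genes did), with a median of 1.17, while the median of the 50 members was 3.46. Against cells marked by both lists 1 of 41 rose, a share near the 2.55% of all genes, and 10 fell, where 4.24% of all genes did, among them Esco2 (-2.61), an acetyltransferase that secures cohesion during replication, and Ncapg2 (-2.03) and Ncapd3 (-1.83) of condensin II. Of 28 regulators of the programme, 20 rose and none fell in M-marked against unmarked cells (11.4% of all genes rose), with a median of 2.12. Foxm1, the transcription factor of late mitotic genes, rose by 5.23 ± 0.25 against unmarked cells and by 3.37 ± 0.32 against S-marked cells. Mybl2 (B-Myb), which joins MuvB during replication, rose by 5.09 ± 0.53 in S-marked against unmarked cells and had a log2 difference of -3.00 ± 0.52 between M-marked cells and cells marked by both lists.

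The second view used clusters. Cells were clustered on training counts without the 50 genes, the marking genes, the other listed cell-cycle genes, or histone, ribosomal protein and mitochondrial genes, and the members were tested in held-out counts of the same cells. Levels per cluster in UMIs and CPM are from all counts of its cells, since the members had no part in the clustering. Cluster 7, with 376 cells of pool 1 and 322 of pool 2, held 83.2% and 82.1% of the members' UMIs, at 15869 and 13492 CPM summed. All 50 members rose in it against the mean of the other 8 tested clusters (15.3% of 11571 genes did), with a median log2 fold change of 4.39, from 3.00 for Smc4 to 5.32 for Aurkb. Mki67 had 1047 and 812 CPM there, and Top2a 1266 and 1021 CPM. Of its deep cells 16.9% and 18.6% were M-marked, 28.9% and 20.9% were marked by both lists, and 0.573% and 2.25% were unmarked.

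Among the other 8 tested clusters, the sums were lowest in cluster 5, led by Pcp4, C1ql1 and Kcnmb4, at 452 and 379 CPM, and in cluster 3, led by Ptgfrn and Otos, at 572 and 483 CPM. In cluster 5, 43 of 50 members fell (3.36% of genes did), among them Aurka (-3.34), Aurkb (-3.19), Kif20a (-2.66) and Top2a (-2.18). Top2a had 18.7 and 18.4 CPM in cluster 5, against 1266 and 1021 CPM in cluster 7. In cluster 3, 37 members fell (1.37% of genes did), with Bub1b (-2.22), Nusap1 (-1.89) and Cdca8 (-1.86) lowest among those that passed. Anln was at -2.58 and did not pass. These counts are set against a mean that includes cluster 7. Without cluster 7 in the fit, an alternative added after seeing the data, 24 members fell in cluster 5 and 10 in cluster 3, where 2.52% and 0.53% of genes did, and none rose in either.

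Cluster 2 was led by S100a10, Vim and Lgals1 and by haemoglobin genes, over the counts of both pools together. The haemoglobin signal came almost only from pool 2, since erythroid markers summed to 0.0897 CPM over pool 1 and 59.6 CPM over pool 2. In cluster 2, 20 members fell, where 7.25% of genes did. Another 4 of 50 rose, a smaller share than the 16.3% of all genes that did. Gas2l3, a cytoskeletal protein of the midbody, fell by 2.28 on the log2 scale, with 1.84 and 1.48 CPM in cluster 2. Plk1 fell by 2.21, with 1.18 and 1.85 CPM. Ccnb2 (1.06 ± 0.25, edgeR adjusted p = 0.00238), Pbk (0.95), Tacc3 (0.79) and Cdca3 (0.70) rose, and Ccnb2 had 21.3 and 27.9 CPM there. Without cluster 7 in the fit 11 were higher and 2 lower, where 16.7% and 7.59% of genes were. Clustering at resolution 0.5 did not refind clusters 2 and 4 (best Jaccard overlap 0.377 and 0.267). Cluster 0 had low UMIs, at medians of 3239 and 2546, and was led by the non-coding Tsix, Xist and Meg3. There 7 members rose (25% of genes did), led by Gas2l3 (1.31), Kif23 (1.03), Kif20b (1.01) and Ect2 (0.97), and 4 fell (28% did), namely Cks1b (-1.56), Ccnb2 (-1.09), Hmgb2 (-1.03) and Cenpw (-0.86). Without cluster 7 in the fit, 15 rose and 2 fell in cluster 0, where 27.5% and 27.6% of genes did, so the share that rose was near that of all genes.

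Clusters 1, 4 and 6 gave few calls. In cluster 1, the shallowest with medians of 1534 and 1568 UMIs, 6 members rose (2.02% of genes did), from Cenpf (1.01) to Birc5 (1.58), and 20 did without cluster 7 in the fit, where 2.66% of genes did. In cluster 4, led by Fosb, Rlbp1 and Fos, 7 members fell (0.285% of genes did), from Top2a (-1.06) to Ccna2 (-1.85), and none did without cluster 7 in the fit. In cluster 6, led by the interferon genes Ifit3 and Isg15, Top2a rose (1.11 ± 0.26, edgeR adjusted p = 0.0145; 2.49% of genes rose) and no other member passed, while 5 rose without cluster 7 in the fit, where 2.75% of genes did. Its pools were far apart, with summed levels of 2603 CPM over 34 cells in pool 1 and 889 CPM over 61 cells in pool 2. The 14 and 16 microglia-like cells had 671 and 315 CPM of the members, with 35 and 33 of the 50 genes at 0 UMIs, beside 358 and 376 CPM in unmarked cells.

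**Figure D4:**
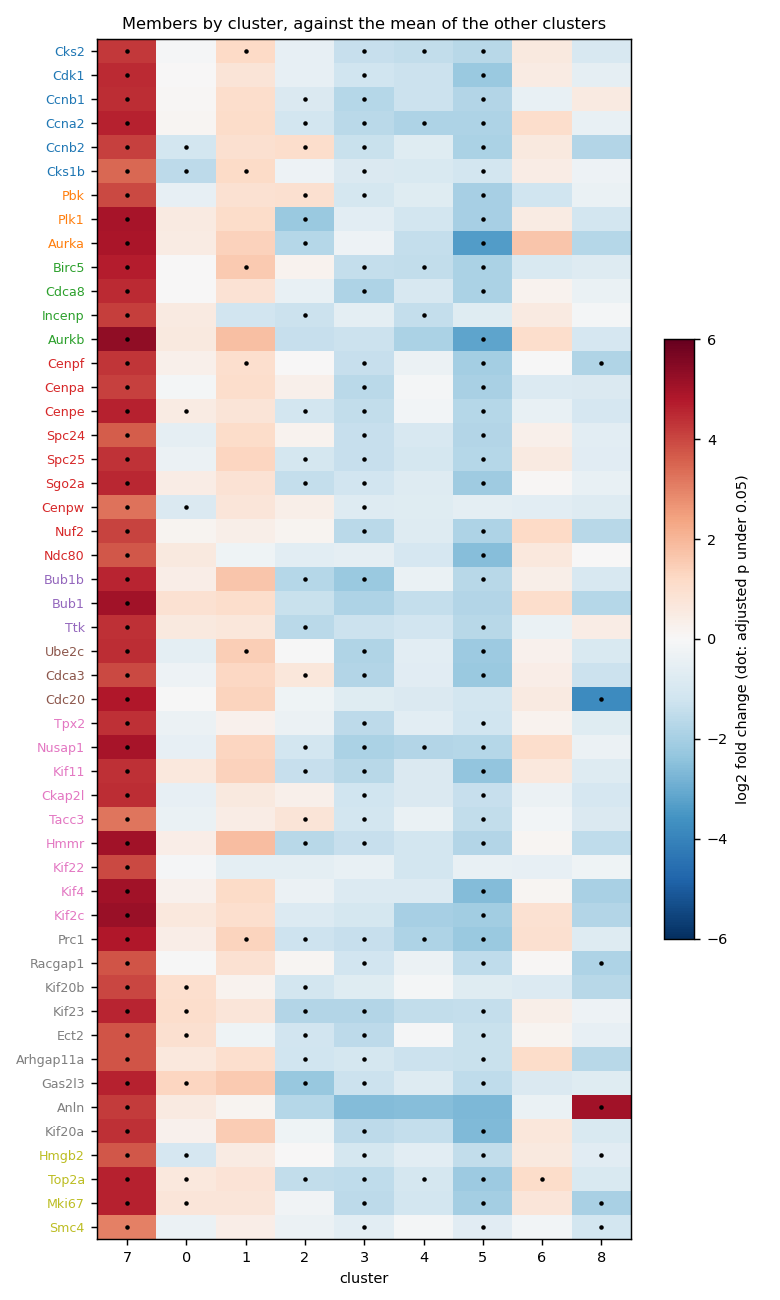
Log2 fold change of each of the 50 genes in each cluster against the mean of the other tested clusters, cluster 7 at the left. Dots mark an adjusted p under 0.05 and names are coloured by role group. Cluster 7 is high for all 50 genes, cluster 5 is low for 43, and Anln is the member that rose in cluster 8.

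Anln was the member that rose in the oligodendrocyte-like cluster 8. That cluster was named from markers that include Mal, Mag, Mbp, Mobp, Mog and Apod. Enpp6, a marker of committed oligodendrocyte precursors, was also among its leading genes. The mean log2 difference was 6.02 over the oligodendrocyte markers and 3.18 over the committed precursor markers. Anln rose there by 5.03 ± 0.51 (log2, SE, edgeR adjusted p = 1.07e-08) against the mean of the other clusters, where 13% of genes rose. Another 6 of 50 members fell, a share near the 10.6% of all genes that did, among them Cdc20 (-3.75), Mki67 (-1.93) and Racgap1 (-1.85). Without cluster 7 in the fit, 3 fell, a smaller share than the 10.5% of all genes that did. Anln was again the member that rose, where 13.9% did. The level was carried by pool 2. There 60 cells of cluster 8 had 222 Anln UMIs, or 251 CPM with a Poisson interval of 219 to 287, above the 61.7 CPM of cluster 7 in that pool. In pool 1, 66 cells had 13 UMIs, or 13.4 CPM with an interval of 7.15 to 23.0, below the 82.9 CPM of cluster 7. The log2 difference for cluster 8 was 5.82 in pool 2 and 1.2 in pool 1. Anln is known as a gene of myelinating oligodendrocytes as well as of cytokinesis. The pool difference was not tested, since each pool is 1 library. The RefSeq Anln promoter window holds TTTGAA or its complement at 2 places, 21 and 28 bases after the start base, and no CCAAT.

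Cdkn1a encodes p21, an inhibitor of the cyclin-dependent kinases, and members were compared between deep cells with and without a Cdkn1a UMI at 2000 training UMIs. There were 435 such cells in pool 1 and 533 in pool 2, against 1927 and 1906 without. In edgeR's quasi-likelihood test 38 of 50 members were higher in Cdkn1a-detected cells and none was lower (3.52% and 2.68% of 13128 genes were), with a median log2 of 0.47 against -0.01 over all genes. Hmgb2 had 676 and 562 CPM in detected cells, against 446 and 448 CPM in undetected cells. Pbk, a mitotic kinase, had 130 and 93.6 CPM in detected cells, against 80.1 and 68.1 CPM in undetected cells. The size differed between pools, with medians of 0.62 in pool 1 and 0.26 in pool 2, and Cdc20 had 0.73 in pool 1 and -0.19 in pool 2. Anln had 28.2 and 32.9 CPM in detected cells, against 20.3 and 14.9 CPM in undetected cells. In pool 2 the oligodendrocyte-like cluster 8, high in Anln, had 480 CPM of Cdkn1a, and 18 of its 55 deep cells were detected. In pool 1 that cluster had 34.1 CPM, and 1 of 57 was. The part of cluster 8 in the Anln difference was not tested.

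The Cdkn1a count depended on the fit. It was 0 with no block for the pool, 3 by DESeq2, 9 with another random split, 13 without the cells of highest doublet score, and 49 with thinning to 1000 UMIs. The share of all genes called under these fits was not counted. Restricted to unmarked cells (150 detected and 771 undetected in pool 1, 267 and 894 in pool 2), 0 of the 34 members that could be fitted passed, where 0.412% of all genes were higher. The median log2 over those 34 was 0.43, and 27 of them were positive. Of the members called in all deep cells, 5 changed sign. The 0.47 above is over all 50 members, so the 2 medians cover different sets of genes. The 3 marked states together made up 16.6% of detected against 11.6% of undetected cells in pool 1, and 9.19% against 9.50% in pool 2. M-marked cells alone were 6.44% against 3.32% in pool 1 and 3.00% against 3.31% in pool 2. Cells marked by both lists were 7.82% against 4.15% and 3.38% against 2.52%. S-marked cells went the other way, at 2.30% against 4.15% and 2.81% against 3.67%. Depth moved with the contrast too, with median UMIs of 13196 and 15655 in detected cells against 10739 and 13233 in undetected cells. The part of these shares and of depth was not tested.

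**Figure D5:**
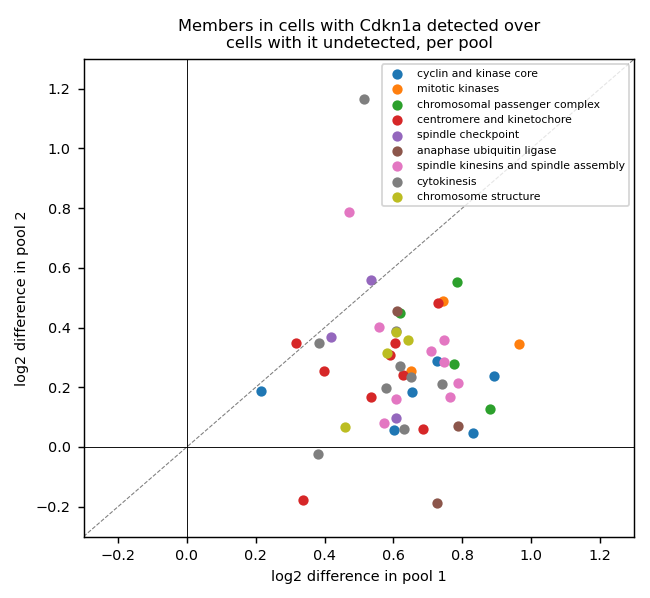
Log2 difference of each of the 50 genes between Cdkn1a-detected and undetected cells, pool 1 on the horizontal and pool 2 on the vertical axis, coloured by role group. Points below the dashed line of equality differ less in pool 2. The median is 0.62 in pool 1 and 0.26 in pool 2, and Anln is the point at the top.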

How the data were processed

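Single-cell RNA of 2 pools of sorted mouse glioma cells was captured with the 10x Genomics 3′ v3.1 chemistry. The deposited tables hold raw UMI counts per gene and cell, made by the authors with Cell Ranger 6.0.2 on GRCm38 (mm10), per the submitters' processing notes. Every other step of theirs is not given in the sources used here. All columns were mapped to a pool, and 0 columns of per-sample values were unused.

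Cells with under 500 genes or over 15% mitochondrial UMIs were left out (337 in pool 1, 372 in pool 2). Doublets were not removed in the main values, since Scrublet called 0 and 2 cells and so did not work. The cells of highest score, 98 and 86, were left out in an alternative. Each UMI went at random (probability 0.5) to training counts, used for marking and clustering (scanpy 1.11.5, 1000 variable genes, 30 components, 15 neighbours, Leiden resolution 0.8), or to held-out counts, summed per pool and state or cluster.

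Sums were tested with edgeR 4.0.16 (R 4.3.3, TMM, filterByExpr, quasi-likelihood test, Benjamini-Hochberg over all genes tested, threshold 0.05) with the pool as a block, since cells of 1 pool come from the same tumours. The fits had 3 residual degrees of freedom for states, 1 for Cdkn1a and 8 for clusters. The prior degrees of freedom, which weigh the spread shared across genes, were 20.6, 50.0 and 17.9 (medians over genes). Values per pool are log2 CPM differences with a prior count of 2. Each SE is the absolute log2 fold change divided by the square root of the quasi-likelihood F. For scarce members it can be narrower than counting error. Intervals are 95% Poisson, Clopper-Pearson or conditional binomial and cover counting error only. Named genes are all 50 members, with full values for those of largest change each way, of highest level in their group, or against the median. The members, the lists and the marking genes were chosen with earlier results of these data known.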

Additional observations from a re-analysis of the deposited data

How the results depend on the processing

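All 50 members stayed higher in M-marked cells than in unmarked and S-marked cells under every tested alternative. These were size factors, DESeq2, no count filter, no replicate block, stricter marking, thinning, stricter cell filter, doublet scores and another split. Each of them used the same marking lists, into which this direction is largely built, so they do not test the choice of lists. The median against unmarked cells was 7.11 with stricter marking, 5.91 with thinning to 1000 UMIs, 6.13 with another split, and 6.08 to 6.26 with 1 pool left out. Against S-marked cells it was 2.97 with thinning, and 3.30 to 3.71 with 1 pool left out. For S-marked against unmarked cells it was 3.33 with stricter marking and 2.38 to 2.68 with 1 pool left out. Leaving out a pool leaves no residual degrees of freedom, so those values have no test. M-marked against both-marked cells gave 11 higher and 1 lower by DESeq2, 14 and 0 with no replicate block, 0 lower with stricter marking, 1 lower with thinning and 1 lower with another split, with medians of 0.79 with stricter marking and 0.58 with thinning. For Cdkn1a, the count higher was 3 by DESeq2, 0 with no replicate block, 24 with at least 2 Cdkn1a UMIs, 25 with the stricter cell filter, 13 without the highest doublet scores, 9 with another split and 0 in unmarked cells, and the median was 0.80 with thinning. In unmarked cells the median was 0.43 and 27 of the 34 members fitted were positive, while Tpx2 (-0.22), Prc1 (-0.31), Cdk1 (-0.019), Ccnb1 (-0.10) and Incenp (-0.57) changed sign. The cluster 7 median was 4.10 to 4.45 with 1 pool left out. Members lower in cluster 3 were 23 with no replicate block and 10 without cluster 7, with medians of -0.82 without cluster 7 and -1.29 to -0.98 with 1 pool left out. Members lower in cluster 5 were 24 without cluster 7, with medians of -1.27 without cluster 7 and -1.66 to -1.48 with 1 pool left out. Over clusters 0, 1, 2, 4, 6 and 8, calls higher and lower were 31 and 60 with no count filter, 8 and 19 with no replicate block, and 52 and 7 without cluster 7. The cause of these changes was not tested, except that leaving out cluster 7 changes what each cluster is set against. Shares of all genes called were counted only for the main fits, the fits without cluster 7 and the fit in unmarked cells. With 2 pools and no control, the depth of S-marked and unmarked sums limits the scarcest members, such as Plk1 and Aurkb.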
